A study of Mus musculus with 18 samples.

Results

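The 32 genes described here mark macrophages, or the states that macrophages take, in the mouse artery. They were chosen by symbol from textbook markers, with earlier results of these data known. All 32 were found among the 54281 genes of the table and passed the filter on low counts. RNA of whole descending aortas, with intima, media and adventitia together, had been sequenced from 18 male C57BL/6 mice. HGPS mice (6, aged 64 to 75 d, the 2-mo group) carried the LMNAG609G knock-in, a model of Hutchinson-Gilford progeria syndrome in which a splice site change in Lmna yields progerin, a truncated Lamin A. WT mice of the same strain formed the 2-mo group (6 mice, 5 of them 62 d and 1 95 d old) and the 24-mo group (6 mice, 609 to 762 d old). The knock-in is in every cell of the animal and is not limited to macrophages or to the vessel wall.

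Macrophages of the healthy artery lie mostly in the adventitia, and depend on CSF1, a growth factor that binds the receptor CSF1R, and on the transcription factor PU.1, encoded by Spi1. Long-lived resident macrophages are known for LYVE1, FOLR2, CD163 and the mannose receptor MRC1. A lipid-handling state, known from atheroma and from fat, is marked by TREM2, GPNMB, CD9, galectin-3 (Lgals3) and the fatty acid carrier FABP5. Whether the resident or the lipid-handling genes differed between HGPS and WT aortas, and whether 24-mo WT aortas differed from 2-mo WT aortas in the same genes, are the comparisons made here. Levels are CPM, which are counts put on one scale of library size,, differences are log2 fold changes with their standard error (SE), and genes past both a 1.5-fold change and an edgeR adjusted p of 0.001 were called. In whole tissue, more macrophages, more RNA per macrophage and less RNA from other cells cannot be told apart.

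Several of these genes carry the letters that PU.1 is known to bind. RefSeq promoter windows of GRCm38.p6 (250 bases before to 50 bases after a start) were matched for 23 of the 32 members. The PU.1 core GAGGAAG, or CTTCCTC on the other strand, stood in a window of 8 of these 23: Fcgr3, Mrc1, Fcgr1, Laptm5, Pf4, Cbr2, F13a1 and Trem2. It stood in 13.6% of all 32851 windows and in a window of 15.4% of all 27025 genes. For the 5 genes with a match before the annotated gene, the one of these nearest the start is shown. This lets a reader see the letters shared by genes of different roles. Mrc1 has a second, 168 bases before the start, and F13a1 also has matches 14 and 17 bases after a start. Each stretch is written 5′ to 3′ along the gene's strand, with the match in capitals.

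Mrc1, chr2:14229353-14229391 (+), match beginning 36 bases before the start: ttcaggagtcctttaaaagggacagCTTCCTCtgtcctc
Trem2, chr17:48346335-48346391 (+), 41 bases: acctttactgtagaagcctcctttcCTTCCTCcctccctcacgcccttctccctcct
Fcgr1, chr3:96293994-96294050 (-), 56 bases: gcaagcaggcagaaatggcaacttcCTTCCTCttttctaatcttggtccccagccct
F13a1, chr13:37050279-37050335 (-), 66 bases: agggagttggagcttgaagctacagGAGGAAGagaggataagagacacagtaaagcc
Pf4, chr5:90772401-90772434 (+), 9 bases: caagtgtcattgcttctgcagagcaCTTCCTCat

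These matches are descriptions of letters, not of bound sites. A second motif was searched after the values were seen, because Gpnmb is a known target of the factor MITF: the M-box TCATGTG, or CACATGA on the other strand. It stood in a window of 4.31% of all genes and, among the 23 members, in that of Ms4a7 only. The window of Gpnmb did not hold these letters, which says nothing of the factor. Of the 5 genes shown, Mrc1, Trem2 and F13a1 were called higher in HGPS than in 2-mo WT aortas, Fcgr1 passed at an adjusted p of 0.00508 without being called, and Pf4 did not pass. Cbr2, which also holds the letters, was lower.

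The depth was 12413229 to 30844775 counts per mouse, with a median of 22752394 in HGPS, 18031579 in 2-mo WT and 17964166 in 24-mo WT. The level of Lmna, 445 to 653 CPM in HGPS and 340 to 486 CPM in 2-mo WT, does not check the genotype, since a count per gene does not tell the mutant transcript from the normal one. The tissue was artery by its markers. The 6 smooth muscle genes summed to 19378 to 27161 CPM in HGPS, 29298 to 37753 CPM in 2-mo WT and 30228 to 34432 CPM in 24-mo WT. All HGPS mice thus lay below all WT mice. The fat genes moved with HGPS, as given beside the results they touch. No mouse was left out.

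In HGPS aortas, 17 of the 32 members were called higher than in 2-mo WT and none lower, against 5.27% of all 15210 genes tested called higher and 4.23% called lower. At an adjusted p under 0.05 with no fold cut-off, 25 members were higher and 2 lower (Gpnmb and Cbr2), against 22% and 21.2% of all genes. In 19 members the lowest HGPS value exceeded the highest 2-mo WT value, as it did in 11.0% of all genes. The median log2 fold change was 0.82 over the members and 0.00 over all genes. Because the members were chosen with earlier results of these data known, these shares are a description only. Against 2-mo WT, none of the 32 members was called in 24-mo WT aortas in either direction, where 1.28% of all genes were called higher and 0.717% lower. The plot of fold changes shows each member by role.

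**Figure D1:**
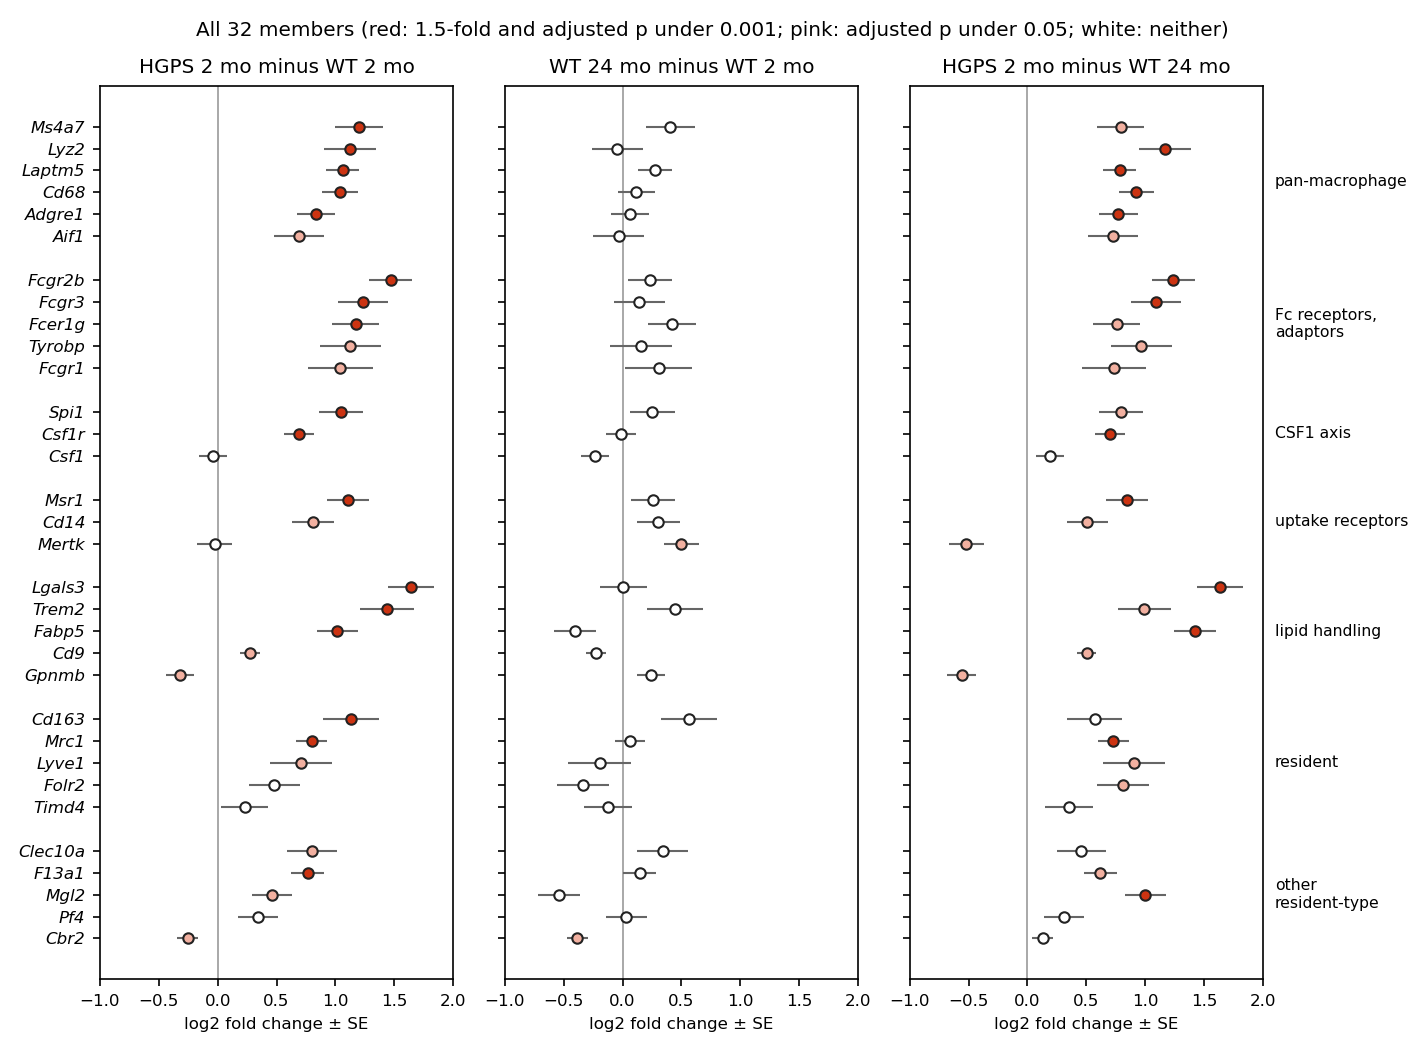
Log2 fold change (x axis, point) with its standard error (line) of each of the 32 members (rows, grouped by role) in the 3 comparisons. In the left panel 17 points are red and lie at 0.69 or above, in the middle panel no point is red, and Gpnmb and Mertk lie below 0 in the right panel.

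Of the CSF1 axis, the receptor and the transcription factor were higher in HGPS and the ligand was not. Csf1r, the receptor on which macrophages depend, lay at 131 to 174 CPM in HGPS (median 167) and at 79.3 to 122 CPM in 2-mo WT (median 101), without overlap. Its log2 fold change was 0.69 (SE 0.13, adjusted p = 0.000283). Spi1, at low level, measured 6.11, 4.57, 5.93, 4.43, 5.09 and 7.39 CPM in HGPS replicates 1 to 6 and 1.81 to 3.76 CPM in 2-mo WT, a log2 fold change of 1.05 (SE 0.19, adjusted p = 0.000207). The groups did not overlap in either gene. The Csf1r call was lost when 2-mo WT replicate 4 was left out (adjusted p = 0.00105). Csf1, the ligand, which vessel wall cells are known to make, spanned 82.4 to 105 CPM in HGPS and 72.0 to 120 CPM in 2-mo WT. Its log2 fold change of -0.04 (SE 0.12, adjusted p = 0.813) was smaller than its standard error, and all HGPS mice lay within the 2-mo WT range.

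Among 11 tested genes of 13 other growth factors, receptors and transcription factors of the macrophage lineage, 4 were called higher and none lower, and at an adjusted p under 0.05 7 were higher and 2 lower. Irf8, a transcription factor of monocytes and macrophages, had the largest log2 fold change at 1.53 (SE 0.23, adjusted p = 4.67e-05). Flt3l, the growth factor of dendritic cell precursors, had the lowest at -0.78 (SE 0.24, adjusted p = 0.0135). The most abundant were Maf, a resident macrophage transcription factor, at 42.8 CPM in HGPS and 34.6 CPM in 2-mo WT (log2 0.31, SE 0.06, adjusted p = 0.000833), and Cebpa, also active in fat cells, at 55.1 and 23.2 CPM (log2 1.24, SE 0.32, adjusted p = 0.00391).

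The 6 genes listed as general macrophage markers were all higher in HGPS at an adjusted p under 0.05, and 5 of them were called. Cd68, a lysosomal glycoprotein, lay at 10.9 to 18.5 CPM in HGPS (median 14.3) and 5.03 to 8.31 CPM in 2-mo WT (median 7.39), 2.06-fold higher (log2 1.04, SE 0.15, adjusted p = 3.05e-05). Laptm5, a lysosomal membrane protein of blood-derived cells, lay at 39.2 to 65.0 against 19.6 to 28.4 CPM (log2 1.06, SE 0.14, adjusted p = 1.29e-05). Neither gene's groups overlapped. Lyz2, the lysozyme of myeloid cells, was by far the most abundant of the 6, at 319 to 575 CPM in HGPS and 148 to 272 CPM in 2-mo WT (log2 1.12, SE 0.22, adjusted p = 0.000427). Of the 31-base words of its transcripts, 32.8% also occur in Lyz1, so that reads of the near-identical neighbour could be shared. Adgre1 (F4/80) had a log2 fold change of 0.83 (SE 0.16, adjusted p = 0.000473) and Ms4a7, a membrane protein of mature macrophages, 1.20 (SE 0.20, adjusted p = 0.000132). With 1 mouse left out the calls of Adgre1 and Lyz2 held in 4 and 6 of 12 fits, with adjusted p of at most 0.00166 and 0.00152. Aif1 (IBA1) rose by 0.69 (SE 0.21, adjusted p = 0.0126) without being called. HGPS replicate 2, at 2.77 CPM, fell within the 2-mo WT range of 2.17 to 3.91 CPM, and the other 5 HGPS mice spanned 4.43 to 5.97 CPM.

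All 5 Fc receptor and adaptor genes were higher in HGPS at an adjusted p under 0.05, with log2 fold changes of 1.04 to 1.47, and 3 were called. Fc receptors bind the constant part of antibodies, and the adaptors Fcer1g and Tyrobp (DAP12) carry the ITAM motif through which activating receptors, TREM2 among them, signal. Fcgr2b, the inhibitory Fc receptor, located at chr1:170958617-170976547 (-) of GRCm38, measured 25.3, 17.2, 28.2, 26.4, 22.4 and 41.5 CPM in HGPS replicates 1 to 6 and 10.5, 8.29, 8.24, 7.30, 12.2 and 11.2 CPM in 2-mo WT. The lowest HGPS mouse thus lay above the highest 2-mo WT mouse, and the log2 fold change was 1.47 (SE 0.18, adjusted p = 6.66e-06). Fcgr3, an activating receptor at chr1:171051174-171064935 (-), lay at 30.7 to 58.2 against 14.3 to 23.6 CPM (log2 1.24, SE 0.21, adjusted p = 0.000151). Of its 31-base words, 14.3% are shared with Fcgr2b, so part of their reads cannot be assigned to one gene with certainty. Fcgr1, the high-affinity receptor, had a log2 fold change of 1.04 (SE 0.28, adjusted p = 0.00508), with 5 of 6 HGPS mice above all 2-mo WT mice.

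Both adaptors were higher with no overlap. Fcer1g lay at 8.77 to 15.3 against 4.13 to 6.998 CPM (log2 1.17, SE 0.20, adjusted p = 0.000132) and Tyrobp at 18.2 to 27.5 against 7.26 to 13.1 CPM (log2 1.12, SE 0.26, adjusted p = 0.00182). Of 12 listed genes of ITAM signalling and its regulators, 11 were tested. Of these, 5 were called higher and none lower, and 9 were higher at an adjusted p under 0.05. Plcg2, a phospholipase, had the smallest log2 fold change at 0.06 (SE 0.21, adjusted p = 0.847). Of the same list, Sirpa, the receptor of the "don't eat me" signal CD47, was higher by 0.30 (SE 0.10, adjusted p = 0.0165) and Inpp5d (SHIP1), a phosphatase recruited by FCGR2B, by 1.09 (SE 0.20, adjusted p = 0.000277).

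The receptors for uptake and sensing moved unequally. Msr1, the scavenger receptor for modified lipoprotein, was called, at 9.06 to 12.7 CPM in HGPS and 3.40 to 6.30 CPM in 2-mo WT (log2 1.11, SE 0.18, adjusted p = 8.96e-05). Cd14, the lipopolysaccharide co-receptor, had a log2 fold change of 0.81 (SE 0.18, adjusted p = 0.00121) and was not called, with replicate 2 (9.52 CPM) inside the 2-mo WT range. Mertk, the receptor for apoptotic cells, stood at 93.9 to 119 CPM in HGPS and 80.3 to 139 CPM in 2-mo WT, a log2 fold change of -0.02 (SE 0.15, adjusted p = 0.918). Gas6, a ligand of MERTK that was among the 2 most abundant genes of the list of other resident-type genes, was higher, at 800 against 542 CPM (log2 0.56, SE 0.07, adjusted p = 1.03e-05), but under the 1.5-fold cut-off and so not called. It is made by many cell types of the wall.

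The resident genes were 2 of 5 called, with 3 higher at an adjusted p under 0.05 and a median log2 fold change of 0.71. Mrc1, at 198, 172, 184, 223, 195 and 226 CPM in HGPS replicates 1 to 6, lay wholly above the 95.8 to 134 CPM of 2-mo WT (log2 0.80, SE 0.13, adjusted p = 7.51e-05). Cd163, the haemoglobin scavenger receptor, had the largest change of the 5, at 59.7 to 96.6 CPM (median 80.4) against 29.1 to 42.9 CPM (median 34.8; log2 1.13, SE 0.24, adjusted p = 0.000865). Its adjusted p stood close to the cut-off, and the call was lost when any 1 of the 12 mice was left out (adjusted p of at most 0.00283). Lyve1, the hyaluronan receptor of resident macrophages and lymphatic endothelium, lay at 50.1 to 72.6 against 30.0 to 46.4 CPM, with no overlap (log2 0.71, SE 0.26, adjusted p = 0.0349). It passed in 6 of 12 fits with 1 mouse left out (adjusted p up to 0.0731). In 6 lymphatic endothelial genes other than Lyve1 none passed at an adjusted p under 0.05, and their summed level overlapped (31.9 to 76.4 CPM in HGPS, 27.96 to 66.0 CPM in 2-mo WT).

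Folr2, a folate receptor, and Timd4, a phosphatidylserine receptor of embryo-derived macrophages, did not pass. Folr2 was at 24.96 to 36.3 CPM in HGPS and 15.3 to 28.2 CPM in 2-mo WT (log2 0.48, SE 0.22, adjusted p = 0.0806), with 4 of 6 HGPS mice above all 2-mo WT mice. Timd4 was at 2.61 to 5.05 against 2.79 to 4.403 CPM (log2 0.23, SE 0.20, adjusted p = 0.379), with both the lowest and the highest value in HGPS.

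Of 5 further genes known from resident-type macrophages, F13a1 was called and the others were not. F13a1, the A subunit of coagulation factor XIII, lay at 220 to 274 CPM in HGPS and 122 to 178 CPM in 2-mo WT (log2 0.76, SE 0.14, adjusted p = 0.000255). Clec10a and Mgl2, paired C-type lectins for galactose, had log2 fold changes of 0.80 (SE 0.21, adjusted p = 0.00533) and 0.46 (SE 0.17, adjusted p = 0.037). Mgl2 passed in 5 of 12 fits with 1 mouse left out (adjusted p up to 0.0914), and not with brown fat and skeletal muscle scores as covariates (0.41, adjusted p = 0.292). Of the 31-base words of Mgl2, 20.3% occur in Clec10a, so the split of reads between them is uncertain. Pf4, a chemokine that platelets also hold, did not pass (log2 0.34, SE 0.17, adjusted p = 0.118). Cbr2, a carbonyl reductase, was lower, at 257, 251, 249, 280, 382 and 275 CPM in HGPS replicates 1 to 6 against 312 to 364 CPM in 2-mo WT (log2 -0.25, SE 0.09, adjusted p = 0.0282). In 5 of 6 HGPS mice it lay below all 2-mo WT mice, and in replicate 5 above all of them. Cbr2 passed in 6 of 12 fits with 1 mouse left out (adjusted p up to 0.0673), and stood at -0.099 (adjusted p = 0.621) with brown fat and skeletal muscle scores as covariates and at -0.074 (adjusted p = 0.604) with a white fat score. Its words are shared to 17.9% with the annotated gene Gm11771.

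In a list of 12 other resident-type genes, 10 were tested, 2 were called higher and 3, with Gas6, were higher at an adjusted p under 0.05. The called genes were Siglec1, named after its value was seen (log2 1.11, adjusted p = 1.86e-05), and Vsig4. Vsig4, a complement receptor, had the largest log2 fold change at 2.33 (SE 0.34, adjusted p = 3.02e-05) from low levels of 4.20 and 0.826 CPM, and Ccl24, a chemokine, the lowest at -0.09 (SE 0.26, adjusted p = 0.822). Selenop, a selenium carrier, was the most abundant, at 879 and 895 CPM (log2 -0.03, SE 0.09, adjusted p = 0.832).

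The lipid-handling genes split. Lgals3, Trem2 and Fabp5 were called higher, Cd9 passed with a small change, and Gpnmb was lower, for a median log2 fold change of 1.01 against 0.71 for the resident genes. That order turned with fat in the fit: the lipid-handling median was 0.44 and the resident median 0.83 with brown fat and skeletal muscle scores as covariates, and 0.48 and 0.94 with a white fat score. Lgals3, at chr14:47367751-47386160 (+), measured 39.8, 31.3, 52.5, 24.8, 35.1 and 35.0 CPM in HGPS replicates 1 to 6 and 10.6, 7.87, 10.9, 11.3, 13.1 and 16.05 CPM in 2-mo WT. Its log2 fold change of 1.64 (SE 0.19, adjusted p = 3.52e-06) was the largest of the 32 members. Trem2, a lipid-sensing receptor that signals through TYROBP, measured 5.49, 2.35, 5.19, 4.31, 3.59 and 6.13 CPM against 1.33, 1.24, 1.19, 2.27, 2.14 and 1.81 CPM (log2 1.44, SE 0.23, adjusted p = 7.99e-05). The groups of Lgals3 stood well apart, and those of Trem2 nearly met, at HGPS replicate 2 and 2-mo WT replicate 4.

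Fabp5 lay at 12.2 to 22.9 CPM in HGPS (median 21.2) and 5.84 to 13.3 CPM in 2-mo WT (median 9.20), with 5 of 6 HGPS mice above all 2-mo WT mice (log2 1.01, SE 0.17, adjusted p = 0.000143). It is also made by fat cells, and 33.1% of its 31-base words occur in other genes, chiefly Gm6166. Cd9, a tetraspanin that most cells of the wall express, was the most abundant member per kilobase of transcript in all groups (mean 473 CPM per kb in HGPS, 391 in 2-mo WT). Its difference was 0.27 (SE 0.08, adjusted p = 0.0112), with 489 to 707 against 447 to 515 CPM. Gpnmb, a lysosomal glycoprotein of lipid-laden macrophages and pigment cells, was lower, at 17.2, 23.3, 20.3, 22.98, 20.9 and 20.8 CPM in HGPS against 21.97, 23.2, 29.0, 24.9, 23.7 and 34.3 CPM in 2-mo WT. The ranges overlapped, 4 of 6 HGPS mice lay below all 2-mo WT mice, and the log2 fold change was -0.32 (SE 0.12, adjusted p = 0.0375), which passed at 0.05 in 6 of 12 fits with 1 mouse left out (adjusted p of at most 0.111). Pigment cell genes were near 0: 5 of them summed to 0.649 to 1.04 CPM in HGPS and 0.648 to 1.12 CPM in 2-mo WT. Mitf, a transcription factor known to drive Gpnmb, is named here after its value was seen. It was lower, at 24.6 against 35.5 CPM (log2 -0.53, SE 0.10, adjusted p = 0.000433). At an adjusted p under 0.05, 21.2% of all genes were lower. Whether the level of Mitf bears on that of Gpnmb was not tested.

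**Figure D2:**
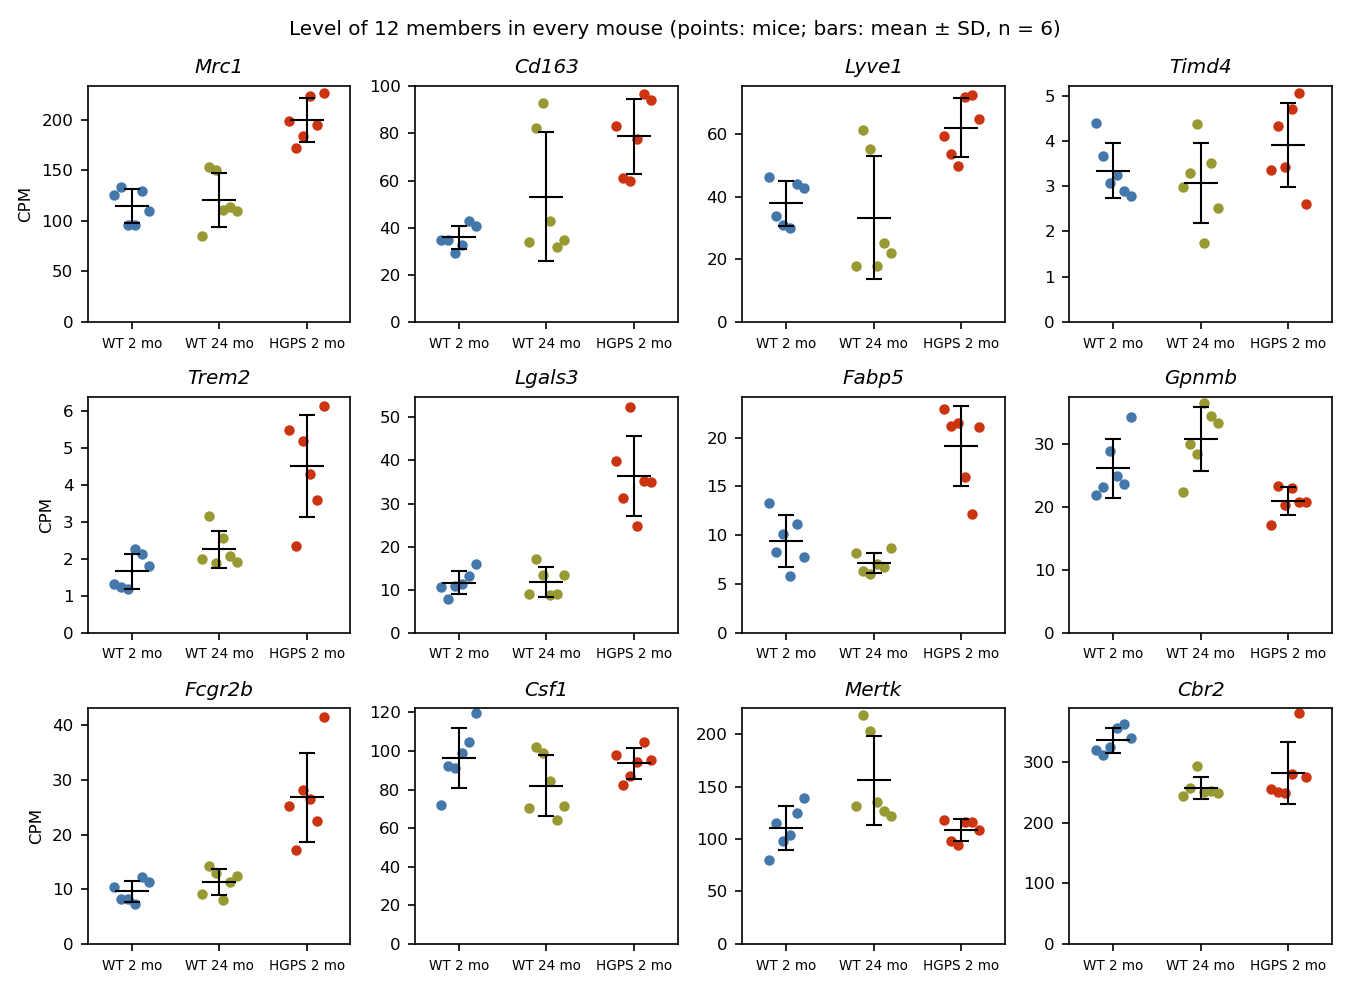
CPM (y axis, from 0) of 12 members in every mouse (points) of the 3 groups, with the mean and SD of 6 mice. All 6 HGPS mice lie above all 2-mo WT mice for Mrc1, Cd163, Lyve1, Trem2, Lgals3 and Fcgr2b, and Timd4, Csf1, Mertk and Gpnmb overlap between these groups.

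Among 15 tested of 16 other genes of the lipid-associated state, 7 were called higher and none lower, and at an adjusted p under 0.05 12 were higher and 1 lower. Spp1 (osteopontin), which smooth muscle cells can also make, had the largest log2 fold change at 5.12 (SE 0.37, adjusted p = 1.88e-08), from 0.757 CPM in 2-mo WT to 26.5 CPM in HGPS. Ctsk, a collagen-cutting protease, was the one lower (log2 -0.44, SE 0.13, adjusted p = 0.00763). The abundant lysosomal proteases Ctsd and Ctsb were higher by 0.66 (SE 0.07, adjusted p = 1.08e-06) and 0.34 (SE 0.05, adjusted p = 6.1e-05), and both are made by most cells. Of 14 inflammatory genes only 7 passed the count filter and 1 was called, Cd86, a co-stimulatory molecule named here as that single call (log2 1.10, SE 0.20, adjusted p = 0.000222). Il1b had the largest log2 fold change of this list at 1.38 (SE 0.87, adjusted p = 0.217), at 0.481 CPM in HGPS.

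Set side by side, 3 of 5 resident genes and 4 of 5 lipid-handling genes were higher in HGPS at an adjusted p under 0.05, while Gpnmb was lower and Folr2 and Timd4 did not pass. The ranges of the balance of both lists within a mouse overlapped. The mean log2 CPM of the 5 resident genes was 5.17 to 5.59 in HGPS and 4.404 to 4.93 in 2-mo WT, and that of the 5 lipid-handling genes 4.88 to 5.23 and 3.98 to 4.39. Lipid-handling minus resident had a median of -0.27 in HGPS (-0.69 to 0.06), -0.38 in 2-mo WT (-0.77 to -0.19) and -0.19 in 24-mo WT (-1.07 to 0.14). No test was made of a score over chosen genes. The lipid-handling genes themselves ran from -0.32 for Gpnmb to 1.64 for Lgals3.

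**Figure D3:**
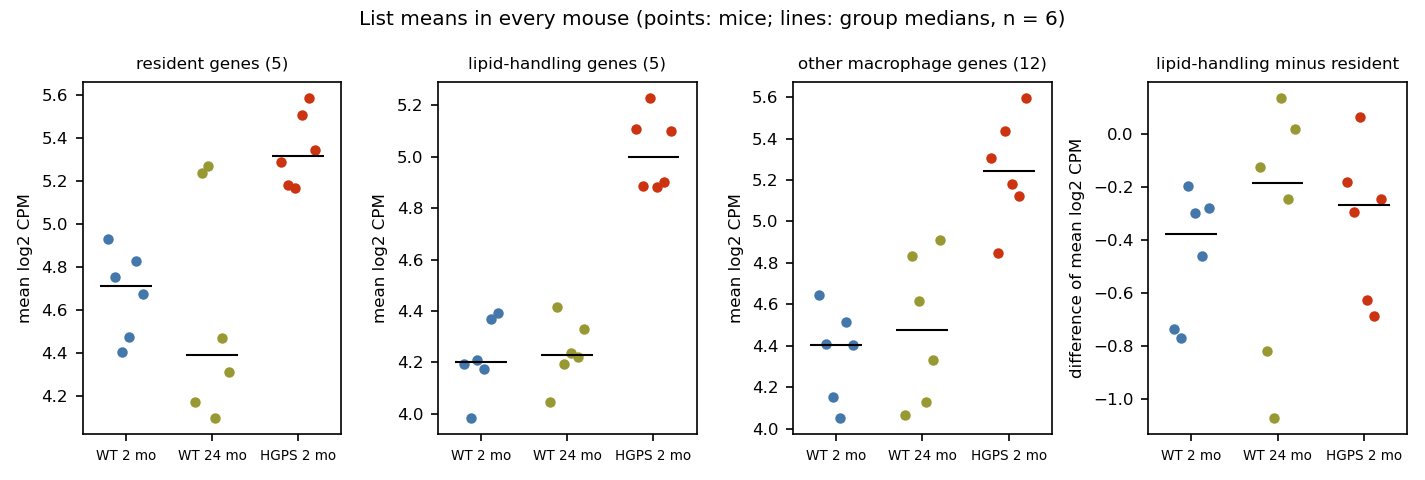
Mean log2 CPM (y axis) of the resident genes, the lipid-handling genes and 12 macrophage genes that are not members, and the difference of the first 2, in every mouse (points) with group medians (lines). All HGPS mice lie above all 2-mo WT mice for the resident genes (at least 5.17 against at most 4.93) and the lipid-handling genes (at least 4.88 against at most 4.39), the highest 24-mo WT mouse reaches 5.27 for the resident genes, and the 3 groups overlap in the difference.

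Other macrophage genes were higher as well. Of 12 that are not members, 7 were called higher, 10 were higher at an adjusted p under 0.05 and none was lower, with a median log2 fold change of 0.92. Mpeg1, a pore-forming protein of macrophages, had the largest at 1.95 (SE 0.28, adjusted p = 2.61e-05). C1qa, a complement component, was at 0.92 (SE 0.21, adjusted p = 0.00189). The mean log2 CPM of the 12 was then subtracted in each mouse, which gives each member's level relative to macrophage genes as a description. On that scale Gpnmb (-1.20), Cbr2 (-1.15), Csf1 (-0.91), Mertk (-0.89), Timd4 (-0.68) and Cd9 (-0.62) were the lowest in HGPS minus 2-mo WT, and Lgals3 (0.75), Fcgr2b (0.56) and Trem2 (0.48) the highest. The mean of the 12 was itself higher in HGPS, so a gene of unchanged CPM falls on this scale. Before subtraction the fit gave -0.04 for Csf1, -0.02 for Mertk, 0.23 for Timd4 and 0.27 for Cd9. Csf1 and Cd9 are also made by other cells of the wall, so the scale does not give their level per macrophage.

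**Figure D4:**
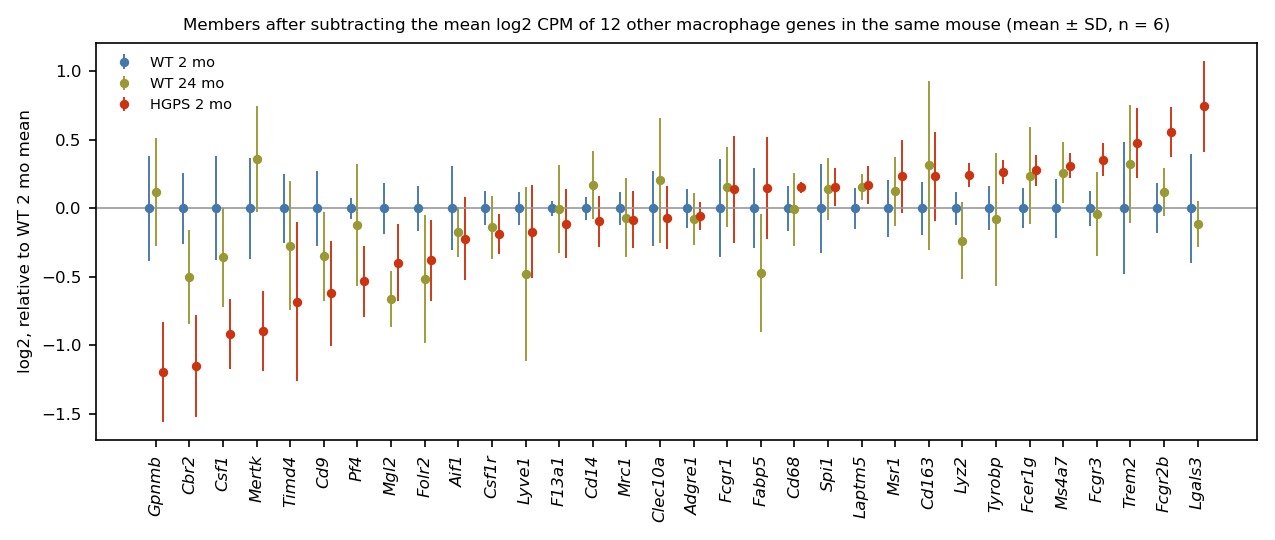
Each member (x axis) after subtraction of the mean log2 CPM of 12 other macrophage genes in the same mouse, centred on the 2-mo WT mean (y axis, log2; points and lines: mean ± SD of 6 mice). The HGPS mean of Gpnmb lies at -1.20 and that of Lgals3 at 0.75.

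With that macrophage score as a covariate of the edgeR fit, no member was called and only Lgals3 passed at an adjusted p under 0.05 (log2 0.97, adjusted p = 0.0444). The share of all genes called fell from 9.5% to 0.368%. The score itself was 4.85 to 5.60 in HGPS and 4.05 to 4.65 in 2-mo WT, with no overlap.

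Pan-leukocyte genes, some monocyte genes and fat genes were higher in HGPS as the members were, and their part in the results was not tested beyond the fits given here. All 8 pan-leukocyte genes were higher at an adjusted p under 0.05, with Cd52 at 2.06 and Arhgdib at 0.39. Of 6 monocyte genes, 5 were tested, and 2 were called: Ccr2, the chemokine receptor of recruited monocytes (log2 2.94, SE 0.49, adjusted p = 0.000106; 19.97 against 2.53 CPM), and Hp, which fat also makes. Of 6 dendritic cell genes 2 were tested, with Cd209a higher (log2 1.68, SE 0.38, adjusted p = 0.00164) and Zbtb46 lower (log2 -0.30, SE 0.09, adjusted p = 0.00806). No tested gene of the neutrophil (2 of 6 tested), T cell (2 of 6), B cell (4 of 5) or mast cell (5 of 6) lists passed at an adjusted p under 0.05. Log2 fold changes were all above 0 for neutrophils (0.32 to 0.94) and T cells (0.78 to 0.99). For B cells (-1.05 to -0.22) and mast cells (-0.49 to -0.01) all were below 0. The 6 T cell genes summed to only 1.26 to 3.07 CPM in HGPS and 0.489 to 3.47 CPM in 2-mo WT. Ly6g and Cd3e, picked as markers, averaged 0.00520 and 0.0735 CPM in HGPS and 0 and 0.0891 CPM in 2-mo WT. With 2 genes tested at such levels, little can be said of neutrophils or T cells. Proliferation genes were higher, with 5 of 6 called (Mki67 log2 1.65, SE 0.22, adjusted p = 9.94e-06). Smooth muscle genes were lower, with 3 of 6 called (Myh11 log2 -1.17, SE 0.11, adjusted p = 2.05e-07).

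Brown and white fat genes were higher in HGPS. The 6 brown fat genes summed to 434 to 1568 CPM in HGPS and 106 to 547 CPM in 2-mo WT, and all 6 passed at an adjusted p under 0.05. The 6 white fat genes summed to 863 to 3192 and 247 to 1086 CPM, and 5 passed. With brown fat and skeletal muscle scores as covariates, 19 members remained higher at an adjusted p under 0.05, 0 were lower and none was called. The median log2 fold change over the 32 members was 0.88. The share of all genes called was then 1.61%. The share of all genes at an adjusted p under 0.05 was not computed for this fit. Fabp5 changed most, from 1.01 to 0.37 (adjusted p = 0.164), and Gpnmb went from -0.32 to -0.06. Lgals3 (1.83, adjusted p = 0.00106), Trem2 (1.68, adjusted p = 0.00224) and Cd163 (1.44, adjusted p = 0.0106) had fold changes as large or larger, at higher adjusted p. With a white fat score 9 members were called, against 4.21% of all genes.

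**Figure D5:**
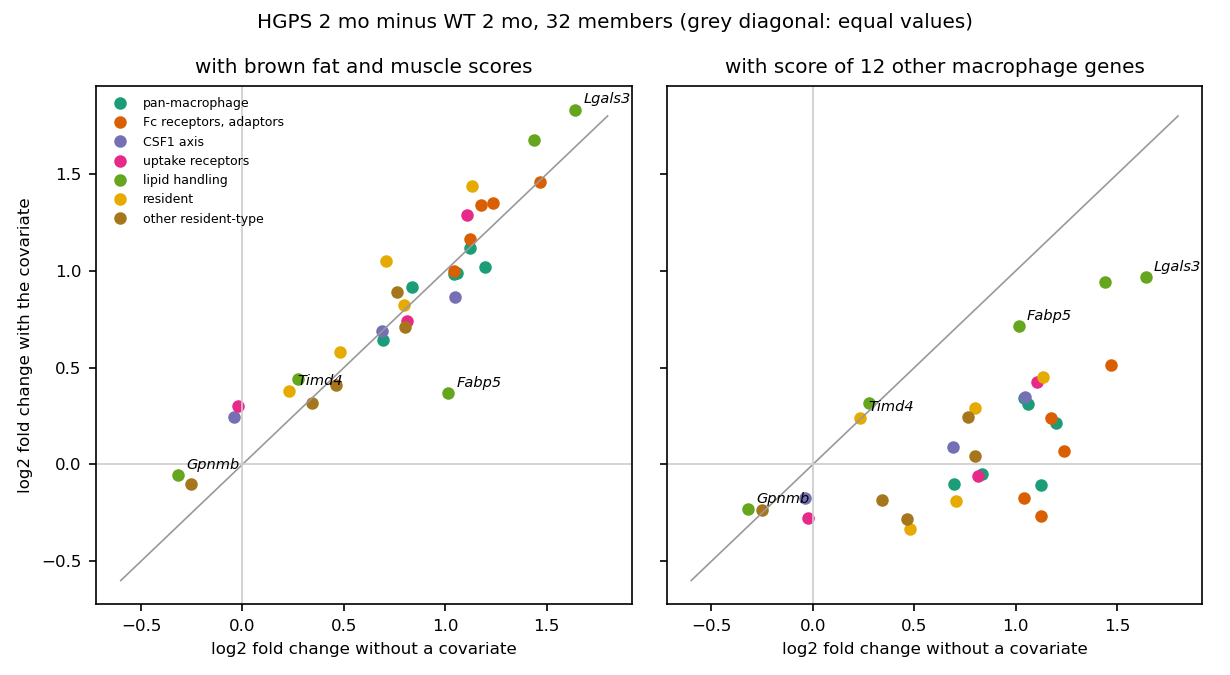
Log2 fold change of the 32 members in HGPS minus 2-mo WT without a covariate (x axis) and with one (y axis), coloured by role. With the fat and muscle scores most members stay near the diagonal and Fabp5 lies below it at 0.37, and with the score of other macrophage genes the points fall toward 0 with Lgals3 at 0.97.

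Between 24-mo and 2-mo WT aortas no member was called by edgeR or by DESeq2, where 1.28% of all genes were called higher and 0.717% lower. At an unadjusted p under 0.05 edgeR gave 2 higher and 4 lower, and DESeq2 3 higher and 4 lower. At an adjusted p under 0.05 Mertk was higher and Cbr2 lower, against 6.29% and 5.38% of all genes. The median log2 fold change of the members was 0.13, that of the resident genes -0.12 and that of the lipid-handling genes 0.01. Mertk measured 131, 218, 203, 135, 127 and 121 CPM in 24-mo WT replicates 1 to 6 and 80.3 to 139 CPM in 2-mo WT (log2 0.50, SE 0.15, adjusted p = 0.034). Replicates 2 and 3 alone exceeded all 2-mo WT mice, and with replicate 2, replicate 3 or any of 2-mo WT replicates 1 to 4 left out the gene no longer passed (adjusted p up to 0.0852). Cbr2 lay at 245 to 294 CPM, below all 2-mo WT mice, 312 to 364 CPM (log2 -0.38, SE 0.09, adjusted p = 0.00737), and passed whichever mouse was left out. Mgl2 was at -0.54 (SE 0.18, adjusted p = 0.0546).

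The 24-mo WT mice varied widely among themselves. Replicate 2 was highest of its group in 18 of the 32 members and among the 2 highest in 27, and replicate 3 was among the 2 highest in 19. Cd163 measured 33.8, 82.5, 93.1, 42.7, 31.8 and 34.7 CPM in replicates 1 to 6, and Lyve1 17.9, 61.5, 55.5, 17.97, 25.2 and 22.2 CPM. For both genes replicates 2 and 3 stood in the HGPS range. The other 4 mice lay within the 2-mo WT range for Cd163 and below it for Lyve1, and the group means were 53.1 and 33.4 CPM. These differences were within the spread of the group (Cd163 log2 0.56, SE 0.24, adjusted p = 0.14; Lyve1 -0.20, SE 0.26, adjusted p = 0.703). In HGPS, replicate 2 was lowest in 18 members and replicate 6 highest in 14.

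Of the 10 other resident-type genes tested, none was called with age. At an adjusted p under 0.05, 4 were higher and none lower, where 6.29% of all genes were higher. In all 10 the ranges of 24-mo and 2-mo WT mice overlapped. Named here because they passed are Vsig4 (log2 1.19, adjusted p = 0.032) and the C-type lectins Cd209f (1.19, adjusted p = 0.00748), Cd209d (1.35, adjusted p = 0.00413) and Cd209g (0.91, adjusted p = 0.0468). Of 15 tested lipid-associated genes that are not members, 1 was higher and 2 lower with age (median log2 fold change 0.048): Spp1 was higher by 2.69 (adjusted p = 9.49e-05) and Ctsk lower, at -0.77 (adjusted p = 0.000353). Of 7 tested inflammatory genes 2 were higher, with Il1b at 2.85 (adjusted p = 0.0299). Of 11 tested other growth factors, receptors and transcription factors of the macrophage lineage 1 was higher, the transcription factor Irf8 at 1.02 (adjusted p = 0.00732). Both tested dendritic cell genes and 2 of 5 tested mast cell genes were higher as well.

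Against 24-mo WT, HGPS aortas had 12 members called higher and none lower, with 6.02% of all genes called higher and 6.11% lower. This comparison shares its HGPS mice with the first and its 24-mo WT mice with the second and is no independent evidence. At an adjusted p under 0.05, 24 were higher and 2 lower (Gpnmb and Mertk), against 23.8% and 23.6% of all genes, and the median log2 fold change was 0.76. The calls of Adgre1, Msr1 and Fcgr3 held in 3, 2 and 9 of 12 fits with 1 mouse left out. Called were Mrc1, Lgals3, Fabp5, Mgl2, Csf1r, Cd68, Adgre1, Laptm5, Lyz2, Fcgr2b, Fcgr3 and Msr1. Lgals3, at 8.71 to 17.2 CPM in 24-mo WT, again had the largest log2 fold change, 1.63 (SE 0.19, adjusted p = 2.07e-06), followed by Fabp5 at 1.42 (SE 0.18, adjusted p = 3.6e-06). Cd163 did not pass (log2 0.57, SE 0.23, adjusted p = 0.0528), nor did Timd4, Clec10a, Pf4, Csf1 and Cbr2.

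Mertk and Gpnmb were lower in HGPS than in 24-mo WT. All 6 HGPS mice (93.9 to 119 CPM) lay below all 24-mo WT mice (121 to 218 CPM) in Mertk, a log2 fold change of -0.52 (SE 0.15, adjusted p = 0.00731). Gpnmb, at 22.4, 30.0, 28.4, 36.5, 34.5 and 33.4 CPM in 24-mo WT, lay at -0.56 (SE 0.12, adjusted p = 0.000804), with 4 of 6 HGPS mice below all 24-mo WT mice. With brown fat and skeletal muscle scores as covariates no member was called in this comparison either, against 2.52% of all genes. At an adjusted p under 0.05, 14 members were then higher and 0 lower, so neither Mertk nor Gpnmb passed. The share of all genes at that threshold was not computed for this fit.

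In order of level per kilobase of transcript in 2-mo WT, Cd9 (391 CPM per kb), Cbr2 (303) and Lyz2 (160) led, and Spi1 (1.32), Msr1 (1.30) and Fcgr1 (1.22) were lowest. In HGPS Lyz2 (350) lay above Cbr2 (254). Trem2 stood at 4.15 CPM per kb in HGPS and 1.53 in 2-mo WT, and Lgals3 at 25.7 and 8.21, so the member of largest fold change was of middle level.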

How the data were processed

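The authors sequenced stranded, ribosomal RNA-depleted libraries of total RNA, 1 per aorta, and obtained gene-level values with salmon and tximport on GENCODE M23 (GRCm38.p6). The deposited table holds estimated counts, already whole numbers and not normalized. Bowtie 0.12.2, mm10 and GRCm38 also stand in the submitters' processing notes, with no role given. GENCODE M21 supplied symbols and coordinates (54107 of 54281 identifiers matched) and RefSeq the promoters.

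All 18 mice entered one edgeR 4.0.16 quasi-likelihood fit (R 4.3.3, TMM, 15 residual degrees of freedom) over 15210 genes that reached 10 counts in 6 or more mice, with Benjamini-Hochberg adjustment across them. The SE was derived from the log2 fold change and its F statistic. A prior count of 2 was used for log2 CPM, and a score averages log2 CPM over the tested genes of a list. The call cut-offs are those of the study. Fits were tested on simulated data with 200 changed genes among 15210. At the call cut-offs edgeR recovered 73% of the 200 with 0 false calls, and DESeq2 80% with 2. A gene that was not called may thus still differ. Mice of a group differed beyond sampling noise in all 45 pairs (chi-square per degree of freedom at least 8.09). Sequence sharing was counted in 31-base words of coding transcripts.

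The members and lists were chosen with earlier results of these data known. All members were described; from other lists, genes of the highest and lowest log2 fold change in HGPS against 2-mo WT and the 2 of highest mean CPM were named, and others only where the text says so; some genes that this rule names are not reported here. Alternatives covered DESeq2 1.42.0, normalization, filters, thresholds, the 2 groups alone, a replicate block, marker scores as covariates and each mouse left out. Protein sequences and the study's other assays were not analysed here.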

Additional observations from a re-analysis of the deposited data

Results flagged for a closer look

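Of 96 sets of 6 mice (32 members in 3 groups), 4 held a mouse far from the others by Dixon's test, and chance flags about 1 set in 20. Cbr2 in HGPS replicate 5 was at 382 CPM, with the other 5 mice at 249 to 280 CPM. Cbr2 in 24-mo WT replicate 3 was at 294 CPM, with the others at 245 to 257 CPM. Clec10a in HGPS replicate 6 was at 18.8 CPM, with the others at 11.0 to 12.8 CPM. Spi1 in 24-mo WT replicate 6 was at 4.68 CPM, with the others at 2.52 to 3.18 CPM. The cause was not tested.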

How the results depend on the processing

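Other size factors, both count filters and the 2 groups alone called 17 to 19 members in HGPS against 2-mo WT, within 1.5 times the main fit. They left 0 in 24-mo against 2-mo WT, and against 24-mo WT the number was 8 to 13. The shares of all genes called were 5.16% to 10.5%, 1.09% to 2.21% and 6.54% to 13.2% in these 3 comparisons. With an adjusted p under 0.05 and no fold cut-off, 27, 2 and 26 members passed in HGPS against 2-mo WT, 24-mo against 2-mo WT and HGPS against 24-mo WT. DESeq2 called 21, 0 and 19 members and 12.6%, 3.16% and 14.9% of all genes. A test against a 1.5-fold change gave 12, 0 and 6 members at an adjusted p under 0.05. The share of all genes passing that test at 0.05 was not computed. With brown fat and skeletal muscle scores 0, 0 and 0 were called (1.61%, 1.2% and 2.52% of all genes). With a white fat score 9, 0 and 10 were called (4.21%, 2.12% and 9.7%), and with the macrophage score 0, 0 and 0 (0.368%, 1.99% and 2.44%). Leaving out 1 mouse gave 13 to 17, 0, and 9 to 16, against 7.47% to 10.6%, 1.51% to 1.93% and 10.5% to 12.8% of all genes. Replicate numbers did not pair the mice (same-number correlations -0.02 to 0.17, -0.16 to 0.08 and -0.10 to 0.07, with 4, 1 and 1 of 12 mice closest to their own number). The replicate block called 14, 0 and 10 members, against 8.32%, 1.44% and 10.9% of all genes. In HGPS against 2-mo WT, the lipid-handling median was 0.44 with brown fat and muscle, 0.48 with white fat and 0.72 with the macrophage score, and the resident median 0.94 with white fat and 0.24 with the macrophage score. Against 24-mo WT the lipid-handling median was 0.71 with brown fat and muscle and 0.55 with the macrophage score, and the resident median 0.18 with the macrophage score. The resident median of 24-mo against 2-mo WT was 0.10 with brown fat and muscle. Signs turned as follows. In HGPS against 2-mo WT, Csf1 and Mertk were at 0.24 and 0.30 with brown fat and muscle and at 0.20 and 0.31 with white fat. With the macrophage score Lyve1 was at -0.19, Folr2 -0.33, Mgl2 -0.28, Pf4 -0.18, Adgre1 -0.052, Aif1 -0.10, Lyz2 -0.10, Fcgr1 -0.18, Tyrobp -0.27 and Cd14 -0.060. In 24-mo against 2-mo WT, Lgals3 was at -0.0025 without a filter and -0.0030 with the block, and Pf4 at -6.7e-05 with the block. With brown fat and muscle Lyve1 was at 0.017, Timd4 0.13, Spi1 -0.023 and Lyz2 0.10, and with white fat Csf1r at 0.0048. With the macrophage score Mrc1 was at -0.0057, Lgals3 -0.11, Pf4 -0.035, Adgre1 -0.073, Fcgr3 -0.061 and Tyrobp -0.12. In HGPS against 24-mo WT with that score, Clec10a was at -0.20, Pf4 -0.15, Ms4a7 -0.041, Fcgr1 -0.28, Fcer1g -0.033, Tyrobp -0.15 and Cd14 -0.25. With 1 mouse left out, Mertk ran from -0.10 to 0.052 and Csf1 from -0.12 to 0.028 in HGPS against 2-mo WT. In 24-mo against 2-mo WT, Lgals3 ran from -0.13 to 0.13, Csf1r -0.087 to 0.062, Lyz2 -0.20 to 0.077, Aif1 -0.22 to 0.076, Pf4 -0.089 to 0.12, Mrc1 -0.015 to 0.15, Adgre1 -0.022 to 0.16, Fcgr3 -0.00073 to 0.27, Tyrobp -0.019 to 0.31 and Cd68 -0.0084 to 0.18. The causes were not tested. Mean counts per member of 56.3 to 9636 set the precision, and 6 mice a group limit it.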
